A study of Mus musculus with 8 samples.

Results

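The transcripts of 10 mouse tetraspanin genes were followed in naive CD8+ T cells, lymphocytes of the cytotoxic lineage before their first encounter with antigen. The genes are Tspan9, Cd37, Cd53, Cd81, Cd82, Cd151, Tspan3, Tspan13, Tspan31 and Tspan32, out of 55573 gene IDs in the deposited count table, and all 10 were found there. The list was chosen by results on these same libraries, among them the fold change of Tspan9 between the genotypes, where it was the 1 gene called lower. Differences between the genotypes at the 10 genes are therefore given as a description, and where a test's calls are counted, nothing is read from them.

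Of 8 libraries, the labels give 5 as Furin KO and 3 as WT, all from male C57BL/6 mice, with cells from spleen and lymph nodes enriched for CD8a and then sorted. The mice were 8 weeks old for 4 Furin KO and 2 WT libraries, and 7 weeks old for Furin KO replicate 1 and WT replicate 1. The labels give neither the part of Furin that was removed nor a driver of its deletion, and do not say whether each library is a separate mouse, so the p-values measure only the spread between these samples. FURIN is a protease that cuts precursor proteins in the secretory pathway. The whole-gene level of Furin stood at 63.5, 86.4, 62.2, 58.0 and 76.6 CPM (read counts scaled to a common library size, by the TMM method) in Furin KO and at 57.0, 66.8 and 66.9 CPM in WT. The libraries labelled Furin KO thus had no less of it (log2 fold change 0.12, SE 0.13), and every direction below is one between labels. Total counts ranged from 11308220 (Furin KO replicate 5) to 21040431.

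Tetraspanins are small proteins that cross the membrane 4 times and gather other membrane proteins, such as integrins, co-receptors and proteases, into shared membrane domains. In lymphocytes they are known for their parts in adhesion, in co-stimulation and in restraining proliferation. Cd37, Cd53 and Tspan32 are largely restricted to blood cells, whereas Cd81, Cd82, Cd151, Tspan3, Tspan13 and Tspan31 occur in many tissues. Tspan9 is best known from platelets.

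The promoters of the 3 members that were lower in every Furin KO library than in every WT library, Tspan9, Cd81 and Cd151, are printed so that their sequence can be set beside those values. Each is the 250 bases before the first start site that RefSeq lists on GRCm38.p6, read 5′ to 3′ on the gene's strand, and capitals mark GGGCGG (a GC box) on either strand. The regions are chr6:128143579-128143828 (minus strand), chr7:143052500-143052749 (plus strand) and chr7:141467112-141467361 (plus strand).
Tspan9: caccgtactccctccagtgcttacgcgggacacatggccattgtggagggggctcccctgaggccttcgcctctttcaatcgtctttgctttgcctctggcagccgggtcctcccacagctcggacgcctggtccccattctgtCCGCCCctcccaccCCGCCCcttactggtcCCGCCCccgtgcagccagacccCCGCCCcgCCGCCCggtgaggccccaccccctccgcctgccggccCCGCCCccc
Cd81: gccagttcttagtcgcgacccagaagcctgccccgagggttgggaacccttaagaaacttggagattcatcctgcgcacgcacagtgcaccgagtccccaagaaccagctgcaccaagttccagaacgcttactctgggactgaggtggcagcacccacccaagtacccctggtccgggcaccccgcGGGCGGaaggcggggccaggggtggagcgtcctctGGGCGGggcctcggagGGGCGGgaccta
Cd151: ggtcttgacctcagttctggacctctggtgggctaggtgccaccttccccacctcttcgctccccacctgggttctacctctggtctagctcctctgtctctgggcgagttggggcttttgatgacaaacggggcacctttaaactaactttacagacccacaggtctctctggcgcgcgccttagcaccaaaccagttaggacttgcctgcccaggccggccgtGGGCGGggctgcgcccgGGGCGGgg
The Tspan9 window held 6 copies of GGGCGG, the Cd81 window 3 and the Cd151 window 2, while 32.7% of the 32851 RefSeq promoters in the table held at least 1 in the same 250 bases. CG dinucleotides numbered 19, 16 and 12 in these windows, against a median of 6 over all promoters. On both strands, the TATA box letters TATAAA had no match in these 3 windows, where 12.4% of all promoters held them. The same was so of CCAAT (the CCAAT box, in 33.8% of all promoters), of TGTGGT (a RUNX core, in 14.0%) and of CAGGAAG (an ETS core, in 10.8%). A match to these letters is a description of the window and not a binding site. RefSeq lists 4 start sites for Tspan9 and 2 for Cd151, and gene counts do not show which of them the cells use. CCAAT was present in the windows before the other 3 starts of Tspan9, whose CG counts were 5, 2 and 7. The window before start 2 of Cd151 held 0 copies of GGGCGG and 4 CG dinucleotides. Of the remaining members, Cd37, Cd82 and Tspan13 held 1 copy of GGGCGG each in the window before their first start. Cd53, Tspan3, Tspan31 and Tspan32 did not hold it. CG dinucleotides there numbered 21 in Tspan13, 14 in Cd82 and in Tspan3, 8 in Cd37, 7 in Tspan31, 2 in Cd53 and 1 in Tspan32. TATAAA and CAGGAAG had no match in any of these windows. TGTGGT had none in Cd37, Cd82, Tspan13 and Tspan31, and CCAAT none in Cd37, Cd82 and Tspan32. For Cd82, which has 4 start sites, this holds for the first alone. TGTGGT was present before its starts 2 and 4, CCAAT before start 3 and CAGGAAG before start 4. In the windows before first starts, presence of GGGCGG, the CG counts and the absent letters are thus not particular to the 3 members printed. The 3 printed windows did hold more copies of GGGCGG than the first window of any other member. Whether the copies bear on the levels was not tested.

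The libraries carried the markers of naive CD8+ T cells. Cd8a, the CD8 alpha chain, was at 1752 ± 111 CPM in Furin KO (SD, n = 5) and 1584 ± 180 CPM in WT (n = 3), and Tcf7, a transcription factor of naive T cells, was at 2262 ± 158 CPM in Furin KO and 2233 ± 224 CPM in WT. Of 3 genes high on antigen-experienced cells, Cd44 was at most 2.72 CPM, and their sum was 183 to 239.9 CPM in Furin KO and 198 to 218 CPM in WT, nearly all of it Il2rb, a chain of the IL-2 receptor. The widely expressed gene Pgk1 averaged only 2.21 CPM in Furin KO and 2.04 CPM in WT. Whether counting bears on the low Cd44 values was not tested.

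In counts per length, Cd53 was the highest of the 10 transcripts and Cd81 the lowest. Levels per length are CPM per kilobase of annotated exon (GENCODE M21, GRCm38), given as mean ± SD over all 8 libraries. Cd53, a tetraspanin of all leukocytes, stood at 335 ± 46.3 CPM per kb. Cd37, which restrains T cell proliferation in mice, stood at 101 ± 8.34 CPM per kb, and Cd82, which rises on activated T cells, at 83.6 ± 10.4 CPM per kb. The lowest Cd53 library lay above the highest Cd37 library, while the ranges of Cd37 and Cd82 overlapped. Tspan13 followed with 31.7 ± 3.45 CPM per kb, and Tspan32 (Tssc6), whose loss makes mouse T cells proliferate more, with 12.0 ± 1.24 CPM per kb. Cd82, Tspan13 and Tspan32 each had a lowest library above the highest of the gene next in the order. Tspan31 had 8.35 ± 0.589 CPM per kb and Tspan9 6.34 ± 4.11 CPM per kb, and their ranges overlapped, as did those of Tspan9 and Tspan3 (3.98 ± 1.12 CPM per kb) and of Tspan3 and Cd151 (2.45 ± 0.649 CPM per kb). Cd81 had 0.342 ± 0.272 CPM per kb and lay under Cd151 in every library.

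The first 5 genes and the last had the same rank in both genotypes. In between, Tspan9 was at rank 8 of 10 in Furin KO with 3.57 CPM per kb and at rank 6 in WT with 10.9 CPM per kb, and Tspan3 was at rank 7 in Furin KO and rank 9 in WT. The sum over the 10 genes was 587 ± 57.6 CPM per kb in Furin KO and 582 ± 54.5 CPM per kb in WT, with overlapping ranges of 528 to 669 in Furin KO and 536 to 642 in WT. Cd53 held 57.3% of that sum in Furin KO and 56.8% in WT. Tspan9 held 0.610 ± 0.115% in Furin KO and 1.86 ± 0.275% in WT.

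**Figure D1:**
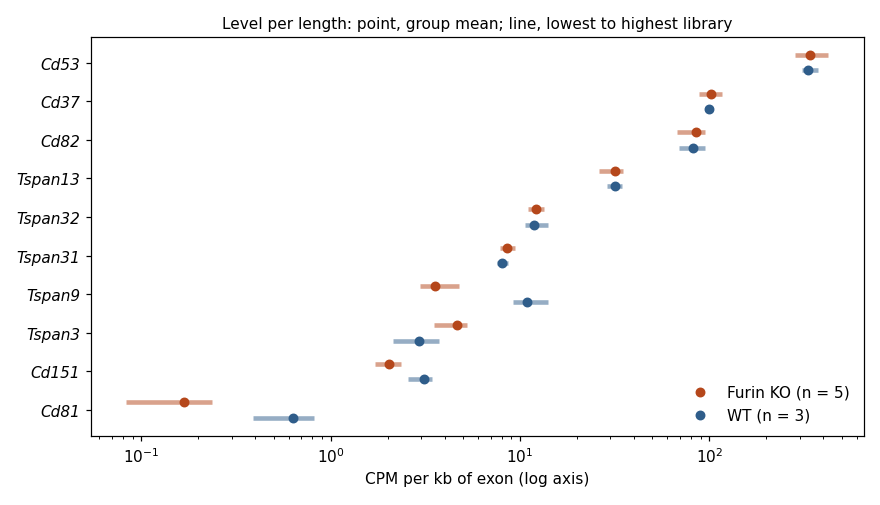
Level per length of the 10 tetraspanin transcripts, on a log axis of CPM per kilobase of exon, with Furin KO (n = 5) above WT (n = 3) for each gene; points are group means and lines run from the lowest to the highest library. Cd53, Cd37 and Cd82 lead in both groups, and the groups stand apart at Tspan9, Cd151 and Cd81.

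Tspan9 was lower in all 5 Furin KO libraries than in any WT library. Its product is a tetraspanin of platelets, which in human cells also takes part in the entry of some viruses through early endosomes. Tspan9 stood at 14.7, 23.6, 15.1, 18.5 and 17.0 CPM in Furin KO and at 45.9, 69.7 and 47.7 CPM in WT. The highest Furin KO library, replicate 2, and the highest WT library, also replicate 2, both came from the samples numbered 3 to 5 in the titles. The means were 17.8 ± 3.60 CPM in Furin KO (SD, n = 5) and 54.4 ± 13.2 CPM in WT (n = 3), and edgeR gave a log2 fold change of -1.61 (SE 0.17). That is a level 0.327 times that of WT. These values rest on 193 to 493 counts per Furin KO library and 669 to 1335 per WT library. In bulk RNA, fewer cells that make a transcript and less transcript per cell cannot be told apart.

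The libraries fell into 3 runs by the sample number in their titles, samples 1 and 2, 3 to 5 and 6 to 8, each with both genotypes. No label calls them batches, and they are known from clustering these same counts. Tspan9 averaged 14.7 CPM in Furin KO against 45.9 CPM in WT in the first run (n = 1 and 1). In the second run it averaged 19.4 CPM in Furin KO against 69.7 CPM in WT (n = 2 and 1), and in the third 17.7 CPM in Furin KO against 47.7 CPM in WT (n = 2 and 1). The log2 ratio within runs thus lay between -1.85 and -1.43.

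Among 6 markers of platelets, the cells best known for Tspan9, only Itga2b had more than a few counts. Gp9, Gp1ba, Pf4 and Ppbp had 0 counts in all 8 libraries, and Gp6 had 3 counts in all. The sum of the 6 platelet markers was 3.95 to 8.43 CPM in Furin KO and 6.78 to 7.76 CPM in WT, nearly all of it Itga2b, an integrin chain. Itga2b averaged 5.89 ± 1.77 CPM in Furin KO and 7.25 ± 0.489 CPM in WT. The widely expressed Pgk1 also had low counts in these libraries (below), so few counts do not show that a marker is absent. Whether platelets bear on the Tspan9 values was not tested.

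Cd81 and Cd151 were the other members whose groups did not overlap, and both were lower in Furin KO. Cd81, part of the B cell co-receptor and also a T cell co-stimulator, stood at 0.679, 0.240, 0.641, 0.334 and 0.527 CPM in Furin KO and at 1.99, 2.35 and 1.12 CPM in WT. Its counts were scarce in both groups, 44 in the 5 Furin KO libraries and 94 in the 3 WT libraries. The log2 fold change was -1.90 with an SE of 0.68, the widest of the 10 genes. B cell markers were as scarce. Ms4a1 and Cr2 had 0 counts in all 8 libraries. Cd79a, a chain of the B cell receptor, was at 0 to 1.34 CPM in Furin KO and 0.470 to 0.506 CPM in WT, and Pax5, a B cell transcription factor, at 0 to 0.703 CPM in Furin KO and 0 to 0.470 CPM in WT. Whether B cells bear on the Cd81 values was not tested. R74862, on the opposite strand, overlaps 948 bases of the Cd81 gene and had 0 counts. The strand setting of the counting is not given, and the widely expressed Pgk1 also had low counts (below). Whether counting bears on the level of Cd81 was not tested either.

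Cd151, a partner of laminin-binding integrins, stood at 5.24, 4.69, 5.66, 5.96 and 6.42 CPM in Furin KO and at 7.00, 9.44 and 9.28 CPM in WT. WT replicate 1 was the closest to the Furin KO libraries. The log2 fold change was -0.62 (SE 0.23), and within the 3 runs of titles the log2 ratio was between -0.87 and -0.42. For Cd81 it was between -2.42 and -1.39 within the runs.

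Tspan3, known in mice for its part in leukaemic stem cells, had the only fold change above 0.5 on the log2 scale among the 10. It stood at 20.1, 19.0, 22.3, 15.0 and 22.4 CPM in Furin KO and at 9.13, 12.3 and 16.0 CPM in WT. The groups overlapped through Furin KO replicate 4 and WT replicate 3, which belong to the same run of titles. The log2 fold change was 0.66 (SE 0.20), and the log2 ratio within runs was 1.14 in the first, 0.75 in the second and 0.22 in the third.

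The other 6 members had overlapping groups and log2 fold changes between -0.01 and 0.08. Cd53 was at 588 ± 96.8 CPM in Furin KO and 577 ± 62.6 CPM in WT, and Cd37 at 360 ± 37.0 CPM in Furin KO and 352 ± 15.2 CPM in WT. Cd82 was at 254 ± 31.4 CPM in Furin KO and 246 ± 37.4 CPM in WT, and Tspan32 at 75.7 ± 5.92 CPM in Furin KO and 73.7 ± 11.6 CPM in WT. Tspan13, which binds voltage-gated calcium channels, was at 78.4 ± 10.2 CPM in Furin KO and 78.8 ± 6.91 CPM in WT. Tspan31, first described in human sarcomas as an amplified gene, was at 18.7 ± 1.34 CPM in Furin KO and 17.7 ± 1.18 CPM in WT. The last 641 bases of the Tspan31 gene overlap Cdk4 on the opposite strand, which stood at 140 to 199 CPM. Whether counting used strand is not given in the sources used here, so reads there cannot be assigned with certainty, and the log2 fold change of Cdk4 was -0.01.

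Of the 10 members, all passed the filter on low counts and 1, Tspan9, was called by edgeR's quasi-likelihood test across 12500 genes at a Benjamini-Hochberg adjusted p under 0.05, beside 0.0320% of all genes tested. DESeq2 and limma-voom also called 1 of 10, beside 0.120% and 0.0400% of all genes. Groups did not overlap at 3 of 10 members, all lower, where 1.59% of all genes had groups that did not overlap and were lower. Since this contrast chose Tspan9, nothing is read from these counts. The median log2 fold change was 0.03 over the 10 members and -0.00068 over all genes tested.

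**Figure D2:**
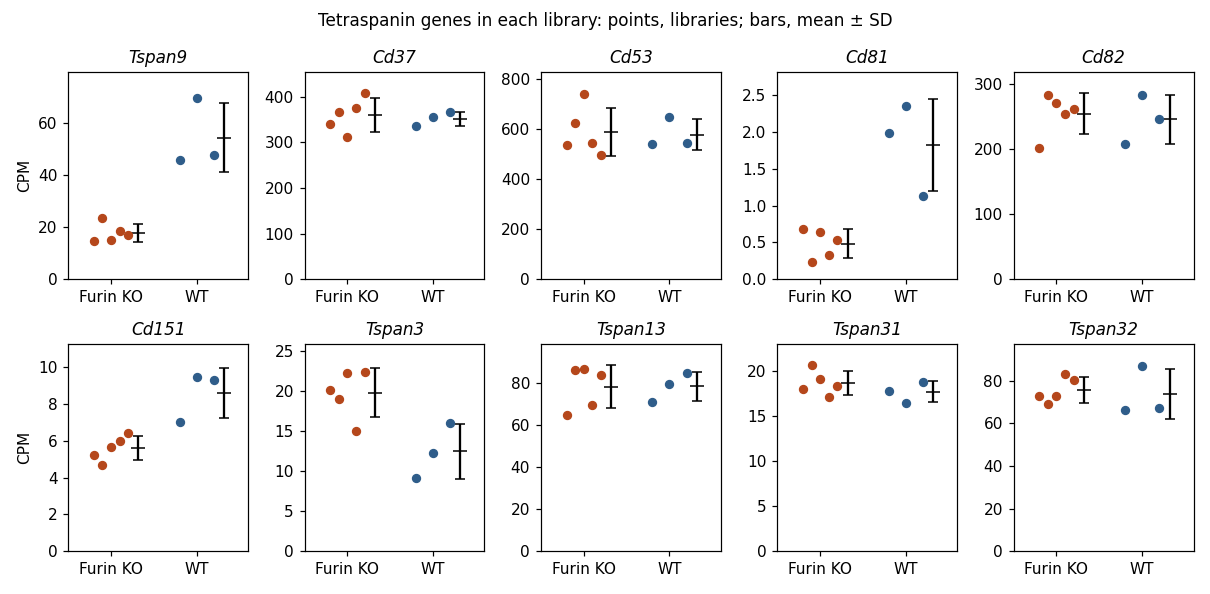
CPM of the 10 tetraspanin genes in each library, each panel with its own axis from 0, Furin KO (5 points) left of WT (3 points) and the mean ± SD beside each group. Tspan9, Cd81 and Cd151 have every Furin KO point under every WT point, Tspan3 overlaps at 1 library of each group, and the other 6 genes overlap broadly.

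The genes around Tspan9 were compared in the same fit. Tspan9 (ENSMUSG00000030352) spans 182 kb of GRCm38 chromosome 6, from 127961396 to 128143594 on the minus strand, with 11 annotated transcripts. Of 101 other annotated genes within 1 Mb of it, 16 were tested and 0 were called by edgeR, 0 had an unadjusted p under 0.05, and 0 had groups without overlap. Over all genes the shares were 0.0320% called, 3.21% with such an unadjusted p and 2.90% without overlap in either direction. The 11 neighbours with a mean of at least 5 CPM had log2 fold changes between -0.10 and 0.19, 5 genes under that mean between -0.76 and 1.05. Tspan11, another tetraspanin, lies nearest on the side of lower coordinates and had 0 counts in all 8 libraries. The nearest tested gene on the side of higher coordinates, Tulp3, which acts in traffic to the primary cilium, was at 19.4 ± 3.90 CPM in Furin KO and 19.7 ± 1.61 CPM in WT. On the other side the nearest tested gene, Cracr2a, a regulator of store-operated calcium entry, was at 183 ± 29.5 CPM in Furin KO and 162 ± 8.36 CPM in WT (log2 fold change 0.18, SE 0.12). Ccnd2, cyclin D2, was at 404 ± 82.3 CPM in Furin KO and 429 ± 50.6 CPM in WT.

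**Figure D3:**
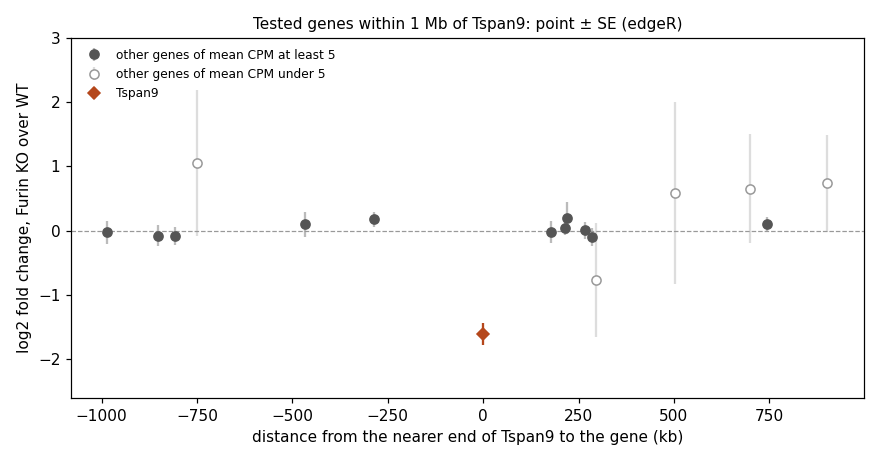
Log2 fold change (Furin KO over WT, ± SE) of Tspan9 and of the 16 tested genes within 1 Mb, by distance in kb from the nearer end of Tspan9; filled points have a mean of at least 5 CPM. Tspan9 stands at -1.61 and the 11 filled neighbours between -0.10 and 0.19.

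Cd81 and Tspan32 lie near each other on chromosome 7, at 143052739 to 143067934 and 143005046 to 143019644, both on the plus strand. Cd81 was lower in all Furin KO libraries, while Tspan32 stood at 73.1, 68.9, 72.8, 83.2 and 80.3 CPM in Furin KO and 66.5, 87.1 and 67.4 CPM in WT. Cd151 lies on the same chromosome at 141467392 to 141471473. None of the 10 genes matched a transcript of a gene elsewhere at 95% identity over 100 bases, apart from genes that overlap Cd151, Tspan31 and Tspan32 in place.

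The rest of the mouse tetraspanin family, 21 further genes, had 6 that were tested, and 0 of the 6 were called by edgeR, DESeq2 or limma-voom or had an unadjusted edgeR p under 0.05. Over all genes tested, edgeR called 0.0320%, DESeq2 0.120% and limma-voom 0.0400%, and 3.21% had such an unadjusted p. The median log2 fold change of the 6 was 0.0081. Tspan14, which guides the protease ADAM10 to the surface, was at 106 ± 13.9 CPM in Furin KO and 107 ± 10.5 CPM in WT. Cd9, a broadly expressed tetraspanin and close relative of Cd81, was at 25.5 ± 6.41 CPM in Furin KO and 26.9 ± 7.36 CPM in WT. Tspan5, another guide of ADAM10, was at 17.6 ± 3.42 CPM in Furin KO and 18.4 ± 3.88 CPM in WT, and Rom1, a tetraspanin of photoreceptor discs, at 18.0 ± 4.02 CPM in Furin KO and 16.1 ± 1.44 CPM in WT. Tspan6 and Tspan4 averaged under 2 CPM in both groups.

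Of 23 membrane proteins known to bind tetraspanins, 16 were tested and 0 were called (edgeR; 1 had an unadjusted p under 0.05). The median log2 fold change was 0.04, with 10 above and 6 below 0, and groups did not overlap at 2. Over all genes, 0.0320% were called, 3.21% had such an unadjusted p and 2.90% had groups without overlap. Ptgfrn (EWI-F), which binds CD9 and CD81, was the one with the low unadjusted p. It stood at 3.44, 0.958, 3.20, 2.57 and 2.46 CPM in Furin KO and at 5.77, 3.97 and 5.68 CPM in WT (log2 fold change -1.02, SE 0.39, unadjusted p = 0.0185 by edgeR's quasi-likelihood test), and it did not pass after adjustment over all genes. Igsf8 (EWI-2), its relative with the same partners, was at 17.5 CPM in Furin KO and 18.5 CPM in WT. The abundant partners were close between groups: Cd8b1, the CD8 beta chain, was at 2112 ± 154 CPM in Furin KO and 2031 ± 259 CPM in WT, Itgal, the alpha chain of the integrin LFA-1, at 648 ± 46.3 CPM in Furin KO and 626 ± 79.1 CPM in WT, and Itgb2, its beta chain, at 648 ± 48.7 CPM in Furin KO and 608 ± 29.8 CPM in WT. Cd5, a negative regulator of T cell receptor signals, had the other pair of groups without overlap, at 277 ± 18.1 CPM in Furin KO and 303 ± 3.35 CPM in WT.

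All 12 cytoplasmic and lipid-linked partners were tested, and 0 were called or had an unadjusted edgeR p under 0.05, beside 0.0320% and 3.21% of all genes. 4 had log2 fold changes above 0 and 8 below, with a median of -0.05. Msn (moesin), which ties membrane proteins to actin, was at 1772 ± 90.0 CPM in Furin KO and 1759 ± 79.9 CPM in WT, and Ezr (ezrin), its relative, at 704 ± 28.8 CPM in Furin KO and 762 ± 36.4 CPM in WT. Ptpn6 (SHP-1), a phosphatase that CD37 recruits, was at 553 ± 26.2 CPM in Furin KO and 604 ± 19.5 CPM in WT, with groups that did not overlap, 1 of 12 beside 2.90% of all genes. Rac1, a small GTPase bound by CD81, was at 195 ± 22.0 CPM in Furin KO and 200 ± 5.19 CPM in WT.

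**Figure D4:**
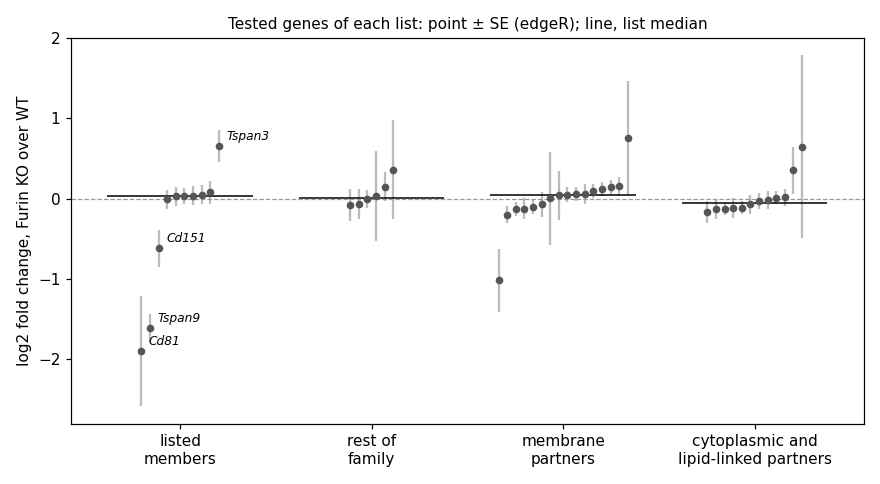
Log2 fold change (Furin KO over WT, point ± SE) of every tested gene of the 10 members, the rest of the family, and the 2 partner lists, sorted within each list, with the list median as a line. Cd81, Tspan9, Cd151 and Tspan3 stand away from 0 among the members. Among the partners so do Ptgfrn (-1.02, SE 0.39), Kit (0.75, SE 0.71) and Zdhhc2 (0.65, SE 1.14). List medians, that of the members included, lie between -0.05 and 0.04.

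Across the 8 libraries, the genes of at least 5 CPM whose levels were most like Tspan9, by Pearson's r of log2(CPM + 1), were Maea (0.94), Xkrx (0.94), Lrig1 (0.91), Prox2 (0.91) and Nme7 (0.91). Their Spearman coefficients were 0.86, 0.74, 0.71, 0.88 and 0.76, and 0 of them were among the 5 highest by Spearman, which Mdh2, Gde1, Ngdn, Ptpn6 and Trerf1 made up. The lowest r belonged to Cyp2s1, Taf1d and Xndc1, at -0.93 each. All 8 were taken from 8806 genes, and the choice thus depends on the measure. With each genotype mean taken off, 0 of the 5 highest stayed among the 5 highest, and r was between 0.39 and 0.48 for Maea, Xkrx, Prox2 and Nme7. It was -0.43 for Cyp2s1, -0.85 for Taf1d and -0.35 for Xndc1. For Lrig1, which restrains receptor tyrosine kinases, it was -0.067. Lrig1 stood at 35.3 ± 2.62 CPM in Furin KO and 54.7 ± 1.87 CPM in WT, and edgeR did not call it (adjusted p = 0.0694). It was picked for likeness to Tspan9, which differs between the genotypes, so nothing is read from this gap.

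Age offered a contrast that had no part in the choice of genes, and asked whether tetraspanin levels differed between mice of 8 and 7 weeks. The model held genotype and age, with 6 libraries of 8 weeks and 2 of 7 weeks. Cd82 was higher in all 6 libraries of 8 weeks, which had 247 to 284 CPM with a median of 267, than in the 7-week libraries, at 202 CPM in Furin KO and 208 CPM in WT. Its log2 fold change was 0.38 (SE 0.09), and the adjusted p was 0.0817 by edgeR, 0.00264 by DESeq2 and 0.0470 by limma-voom. It therefore did not pass by edgeR and did by the other tools, and over all alternatives the adjusted p ran from 0.00264 to 0.682. The upper end came from leaving out Furin KO replicate 1, and without WT replicate 1 it was 0.534. Each of these leaves 1 library of 7 weeks, which is then assumed to vary like the others. Tspan13 averaged 82.0 ± 6.41 CPM at 8 weeks and 68.2 ± 4.53 CPM at 7 weeks, with a log2 fold change of 0.27 (edgeR adjusted p = 0.299).

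In this contrast 0 of 10 members were called by edgeR, beside 0.336% of all genes. DESeq2 and limma-voom each called 1 of 10, beside 3.06% and 0.912%. DESeq2 gave no adjusted p here for Cd81, Cd151, Tspan3 and Tspan31, so it could not call them. Its share over all genes likewise takes genes without an adjusted p as not called. At an unadjusted edgeR p under 0.05 there were 2 of 10, Cd82 and Tspan13, beside 13.5% of all genes. 9 of 10 had higher fitted values at 8 weeks, beside 6372 of all 12500 genes tested. Cd81 was the exception (-0.44, SE 0.77). At Tspan3 (0.24, SE 0.21) and Tspan31 (0.03, SE 0.16) the sign turned when a single library was left out. The median log2 fold change of the 10 was 0.20, against 0.0063 over all genes. In the rest of the family, 5 of the 6 tested genes were higher at 8 weeks, with a median of 0.17. The ages did not overlap at 1 of 10, Cd82, beside 16.2% of all genes. The fold change of Tspan9 was 0.35 (SE 0.18, edgeR adjusted p = 0.436). The 7-week libraries are also samples 1 and 2 of the titles, so age and place in the series cannot be told apart.

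Among the 8-week libraries, Cd53 and Cd82 also differed between the runs of titles. Cd53 was at 545, 495 and 543 CPM in samples 6 to 8 and at 625, 740 and 649 CPM in samples 3 to 5, with no overlap. Cd82 was at 254, 262 and 247 CPM in samples 6 to 8 and at 284, 271 and 283 CPM in samples 3 to 5. 2 of 10 members without overlap is close to the 18.5% of all genes that had none between these runs, so it is not a result about tetraspanins. Fos, an immediate early gene, was at 801 to 944 CPM in samples 6 to 8 and at 85.8 to 204 CPM in samples 3 to 5, and its part in these values was not tested.

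**Figure D5:**
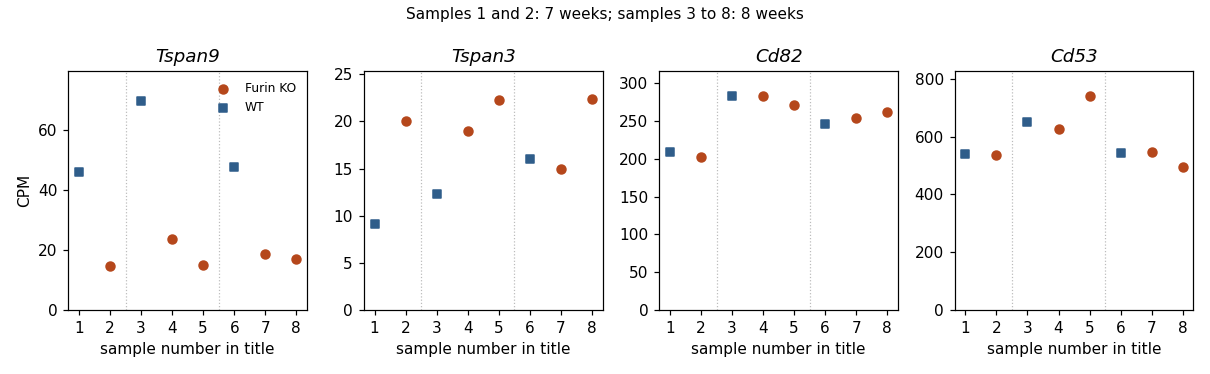
CPM of Tspan9, Tspan3, Cd82 and Cd53 by sample number in the titles, with dotted lines between samples 1 and 2 (7 weeks), 3 to 5 and 6 to 8 (8 weeks); circles are Furin KO and squares WT. Tspan9 splits by genotype within every run, Cd82 is lowest in samples 1 and 2, and Cd53 is highest in samples 3 to 5.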

How the data were processed

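RNA of 8 samples (5 Furin KO, 3 WT) was sequenced. The authors deposited 1 table of raw counts per Ensembl gene ID, not normalised. Per the submitters' processing notes, the build was GRCm38 and the tools were STAR, Trim Galore, FastQC and DESeq2 1.24.0. How reads were counted (program, annotation, strand, several matches) is a step not given in the sources used here. Columns were matched to samples by title. Symbols and coordinates came from GENCODE M21 (GRCm38), which matched 55480 of the IDs.

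From the deposited counts, edgeR 4.0.16 was run in R 4.3.3 with TMM factors, filterByExpr by genotype (12500 genes kept) and the two-sided quasi-likelihood test of genotype, or of age beside genotype, with Benjamini-Hochberg adjustment at 0.05. DESeq2 1.42.0 and limma 3.58.1 (voom) were alternatives, with other size factors and filters, age or title run as a factor, the 8-week libraries alone, and libraries left out. The fit was also tested on simulated data. CPM use the TMM-scaled library sizes. Members and lists were chosen with earlier results of these data known. Named genes are all members, the tested rest of the family, the most abundant and the non-overlapping or low-p partners, tested neighbours of Tspan9, and the 5 highest and 3 lowest in likeness to it. Protein features were not analysed here, and 2 of the listed marker genes are not reported here.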

Additional observations from a re-analysis of the deposited data

How the results depend on the processing

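With other size factors, filters, tools, covariates and library choices, Tspan9 was called in all 18 alternatives of the genotype comparison, with log2 fold changes of -1.74 to -1.39, both ends from leaving out 1 library. Since Tspan9 was chosen by this fold change in these same libraries, this shows how the value depends on the processing and is no further support for it. The fold changes of Cd81 (-2.15 to -1.67), Cd151 (-0.80 to -0.55) and Tspan3 (0.43 to 0.88) kept their sign in all 18, and none of these 3 was called in any. The genes called higher and lower over the whole table, 3 and 1, became 25 and 13 with no filter beyond 1 count, 12 and 3 by DESeq2, and 8 and 4 with the title run as a factor, and limma-voom called 2 lower. Leaving out single libraries gave 2 to 4 higher and 1 lower.

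For age, where edgeR called 10 genes higher and 32 lower at 8 weeks, the counts were 105 and 173 with no filter beyond 1 count, 170 and 212 by DESeq2 and 37 and 77 by limma-voom, each with 1 member called, Cd82. Without the genotype term 21 were higher. Leaving out single libraries gave 0 to 18 higher and 0 to 40 lower: none in either direction without Furin KO replicate 1 or Furin KO replicate 2, 0 and 1 without WT replicate 1, 1 and 10 without WT replicate 3, 6 and 15 without Furin KO replicate 4, 4 and 15 without Furin KO replicate 5, and 18 higher without Furin KO replicate 3. Among these, the age fold change turned sign at Tspan31 (0.030 with all libraries, -0.013 to 0.073) and at Tspan3 (0.24 with all libraries, -0.028 to 0.63). The ends for Tspan3 came from leaving out WT replicate 1 (-0.028) and Furin KO replicate 1 (0.63). With genotype means taken off, the likeness of Lrig1 to Tspan9 was -0.067. The causes were not tested. With the longest transcript as the length, all 10 genes kept their place in the order by level over the 8 libraries, but 7 levels moved by more than their SD, and 3 by over 1.5 times: Cd82 to 138, Tspan3 to 7.99 and Cd81 to 0.613 CPM per kb. In WT, Tspan3 was then at rank 8 and Cd151 at rank 9. Cd81 rests on few counts, 5 to 45 per library. The titles number the samples 1 to 8 once through, so no label pairs single libraries; the fit with the title run as a factor (above) compares the genotypes within runs.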

Other observations

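Of the 21 other listed tetraspanin genes, 11 had 0 counts in every library, among them Cd63, a tetraspanin of late endosomes, and Tspan17, a guide of ADAM10. In these libraries a count of 0 allows up to 3 counts, or 0.143 CPM in the deepest and 0.265 CPM in the shallowest library, counting error only. 4 more had between 10 and 47 counts over all 8 libraries and were not tested. Pgk1, a glycolytic enzyme that every cell uses, had only 14 to 63 counts per library, whereas Hprt had 921 to 1791, so some genes with a low count here are known to be widely expressed. A 188-base stretch of Cd63 matched the pseudogene Cd63-ps at 98.4% identity, and whether lost reads bear on the 0 counts of Cd63 was not tested.

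ADAM10, the membrane protease that cleaves Notch receptors, is guided by a subgroup of tetraspanins. Adam10 stood at 142, 161, 166, 127 and 145 CPM in Furin KO and at 116, 164 and 120 CPM in WT (log2 fold change 0.15, SE 0.12). Of the subgroup, Tspan14 and Tspan5 were tested, with log2 fold changes of -0.01 and -0.07. Tspan10, Tspan15 and Tspan17 had 0 counts, and Tspan33 had 10 in all. By age, Cd9 was at 22.8 to 35.1 CPM in the 6 libraries of 8 weeks and averaged 18.2 CPM in those of 7 weeks (log2 fold change 0.67, edgeR adjusted p = 0.118), with no overlap, as at 16.2% of all genes.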
